A study of Drosophila melanogaster with 2 samples.

Results

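The subject is the set of transfer RNA (tRNA) genes of Drosophila melanogaster and where CG1792, a zinc finger protein with a ZAD domain, was found at them. The members were all genes that Ensembl's BDGP release 6 annotation assigns to the tRNA class on chromosomes X, 2, 3 and 4. There were 290 of them among 18164 annotated genes, transposable elements left out, and all 290 had the same coordinates in RefSeq. They covered 22 isotypes, initiator methionine and selenocysteine counted apart, and 44 anticodons. Gene length ran from 71 to 186 bp with a median of 73 bp.

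Binding was measured by chromatin immunoprecipitation with sequencing (ChIP-seq) in whole embryos aged 0 to 24 hours, males and females pooled, so each library is a mixture of cell types. Every embryo came from a single transgenic line that stably expresses CG1792 with GFP at its C-terminus, and chromatin was sheared by sonication. The labels' free text names an anti-GFP antibody, whereas the antibody field names CG1792. The 2 libraries, biological replicates 2 and 3, form 1 group, so conditions could not be contrasted. The authors' listing names a control alignment used in calling the regions, which was not analysed here. Each replicate and the pool of both had a deposited list of 30000 regions that includes background. A thresholded list of 2892 peaks, kept by the irreproducible discovery rate (which scores whether a region ranks alike in both replicates), had the same summits as the 2892 strongest pooled regions. A gene was counted when a summit, the single base where a region's signal is highest, lay within 500 bp of its start. Read counts are not part of the lists, and library depth is therefore unknown.

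tRNA genes are transcribed by RNA polymerase III from promoters that lie inside the gene. The factor TFIIIC recognises an A box near the start and a B box further in, in the parts that encode the D and T arms of the tRNA, and it places TFIIIB upstream of the start. TFIIIB in turn recruits the polymerase. In the fly, TFIIIB contains Brf, Bdp1 and the TBP-related factor Trf. Clusters of tRNA genes and TFIIIC sites can also act as chromatin boundaries in yeast and mammals.

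The sequences of 3 tRNA genes at thresholded peaks and of the 101 bp around their summits are given because they show how the summits lay relative to the gene. tRNA:Gln-TTG-2-1 (dm6, chrX:3427452-3427523, minus strand) was the member with a peak far from any protein-coding start. tRNA:Tyr-GTA-1-8 (chr3R:8669081-8669174, minus strand) had the strongest peak, and its longer gene holds an intron after the anticodon. tRNA:Gly-TCC-1-1 (chr3R:7129864-7129935, plus strand) had the weakest. Summit windows (chrX:3427683-3427783, chr3R:8669344-8669444 and chr3R:7129489-7129589) are written on the strand of the tRNA gene. Capitals in the genes mark the B box core GTTCNANNC, and capitals in the summit windows mark CGATA, the core of the element bound by the promoter factor Dref. Sequences are RefSeq's of the dm6 build, 5′ to 3′.
tRNA:Gln-TTG-2-1 gene: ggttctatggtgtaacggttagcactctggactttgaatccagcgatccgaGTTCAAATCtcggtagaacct
tRNA:Gln-TTG-2-1 summit window: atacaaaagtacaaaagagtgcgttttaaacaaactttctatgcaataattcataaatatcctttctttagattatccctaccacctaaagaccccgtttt
tRNA:Tyr-GTA-1-8 gene: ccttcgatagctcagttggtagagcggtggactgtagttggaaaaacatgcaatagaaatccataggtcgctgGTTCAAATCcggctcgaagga
tRNA:Tyr-GTA-1-8 summit window: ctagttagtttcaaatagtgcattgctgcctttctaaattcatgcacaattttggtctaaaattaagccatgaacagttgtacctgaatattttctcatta
tRNA:Gly-TCC-1-1 gene: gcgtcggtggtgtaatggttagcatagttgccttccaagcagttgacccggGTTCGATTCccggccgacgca
tRNA:Gly-TCC-1-1 summit window: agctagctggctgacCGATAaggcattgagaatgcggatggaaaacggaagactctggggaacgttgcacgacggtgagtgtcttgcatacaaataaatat
In each of the 3 genes the B box core lay in the last part of the gene, and none of the 3 summit windows held these letters on either strand. On either strand, CGATA was present in the window of tRNA:Gly-TCC-1-1 alone.

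The first question was how often CG1792 peaks lay at tRNA genes. A thresholded summit lay within 500 bp of 8 of the 290 tRNA starts, or 2.76% (Wilson 95% interval 1.4% to 5.35%, counting error only). The share was 11.8% over all annotated genes and 14.2% over the 13945 protein-coding genes. It was 4.39% over 3261 ncRNA genes, 2.60% over 269 snoRNA genes and 2.09% over windows of 1001 bp laid end to end along the same arms. The tRNA share was thus about that of snoRNA genes and of the genome windows, and well under that of protein-coding genes. Among the 2892 strongest regions of each replicate alone, 7 tRNA genes (2.41%, against 11.8% of all genes) had a summit in replicate 2 and 12 (4.14%, against 11.6%) in replicate 3. Both replicates placed tRNA genes far below all genes.

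The pooled list, most of which lies below the authors' threshold, gave another order. Here 149 tRNA genes (51.4%, interval 45.6% to 57.1%) had a summit, against 48.0% of all genes and 53.2% of protein-coding genes. The intervals in this paragraph take genes as independent. As 72 of the 149 shared a summit with another tRNA gene, they may be too narrow. The share was 30.6% for ncRNA genes, 37.2% for snoRNA genes and 19.1% for genome windows. The replicates differed at tRNA genes. The full list of replicate 2 reached 115 of them (39.7%, interval 34.2% to 45.4%; 44.9% of all genes) and that of replicate 3 reached 176 (60.7%, interval 55% to 66.1%; 48.7% of all genes). Between the same lists, protein-coding genes moved from 49.6% to 54.0%, and snoRNA genes from 33.5% to 35.7%. The tRNA share therefore lay under that of all genes in replicate 2 and over it in replicate 3, and its pooled level rests on replicate 3 more than on replicate 2.

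**Figure D1:**
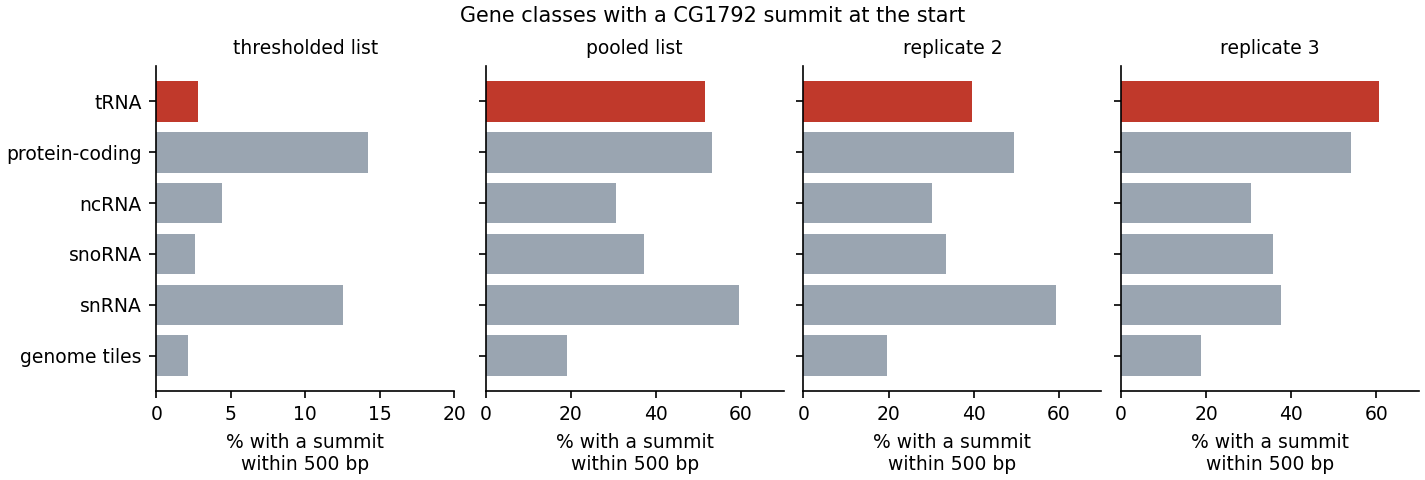
Share of each gene class (%) with a CG1792 summit within 500 bp of its start, in the thresholded, pooled and single-replicate lists; the first panel has its own scale, and genome tiles are windows of 1001 bp. tRNA genes (red) sit at 2.76% in the thresholded list, and at 39.7% in replicate 2 against 60.7% in replicate 3.

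The same count was made by distance of the tRNA gene to the nearest protein-coding start. Of the 32 tRNA genes with such a start within 500 bp, 6 (18.8%) had a thresholded summit. Of the 47 with one over 500 and up to 1000 bp away, 1 did. None of 101 genes at over 1000 and up to 5000 bp did, and 1 of 110 beyond 5000 bp did. Thresholded summits at tRNA genes therefore lay mainly where a protein-coding promoter is close. The pooled shares differed less with distance, at 62.5%, 53.2%, 46.5% and 51.8% of tRNA genes in these 4 distance ranges.

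Over 1000 bp from any protein-coding start, 104 of 211 tRNA genes (49.3%) had a pooled summit. At the same distance the share was 24.7% of 2325 ncRNA genes, 32.1% of 184 snoRNA genes and 14.6% of genome windows. The higher share of tRNA genes in the pooled list was thus seen away from protein-coding promoters too. It held in each replicate. In replicate 2 the share was 37.9% (ncRNA genes 24.8%, snoRNA genes 32.1%, genome windows 15.8%), so the lead over snoRNA genes was small there. In replicate 3 it was 58.8% (23.6%, 30.4% and 14.2%). In the thresholded list tRNA genes were the lowest of these, with 1 of the 211 tRNA genes (0.474%), 2.80% of ncRNA genes and 0.997% of genome windows.

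The 8 thresholded peaks at tRNA genes were 8 separate regions, with signals from 71.1 to 331 and a median of 105.5, beside 100.6 for the whole list. Signal is the strength of a region on the caller's own scale, which is not stated, so it is compared within a list or by rank. Of these summits 7 had a protein-coding start within 500 bp, and 5 were closer to that start than to the tRNA gene. None lay inside the tRNA gene, and 6 lay upstream of it. Of the 8, 4 were among the 2892 strongest regions of replicate 2 and 7 among those of replicate 3.

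The strongest was at tRNA:Tyr-GTA-1-8, a tyrosine tRNA gene within introns of CG8036 and p (pink), a gene for a subunit of a lysosome-related organelle complex. Its summit lay 220 bp upstream of the tRNA start and 224 bp from the start of CG8036. The signal was 331 (rank 123) in the pooled list, 137 (rank 162) in replicate 2 and 190 (rank 110) in replicate 3. This was a strong peak in both libraries, about equally near to both starts.

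tRNA:Val-CAC-2-5 (3R, 19672277 to 19672349) lies in an intron of Naam, which encodes a nicotinamidase. Its summit was 467 bp downstream of the tRNA start and 432 bp from a start of Naam (signal 124, rank 965). The replicates placed it far apart, at rank 3075 (signal 32.01) in replicate 2 and rank 546 (signal 91.1) in replicate 3. At tRNA:Phe-GAA-1-2 (X, 6744471 to 6744543), the summit was 201 bp downstream of the tRNA start, past the end of the gene, and 104 bp from RpL17, a ribosomal protein gene (signal 117.5, rank 1077). Here replicate 2 gave the better rank, 740 (signal 68.3), against 1516 (signal 53.5) in replicate 3.

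At tRNA:Trp-CCA-2-2 (2R, 18639557 to 18639628) the summit lay 294 bp upstream of the tRNA and 7 bp from the start of CG30122 (signal 107, rank 1289). It ranked 899 (signal 62.3) in replicate 2 and 2085 (signal 44.8) in replicate 3. At tRNA:His-GTG-1-3 (2R, 12334995 to 12335066) it lay 134 bp upstream of the tRNA and 116 bp from CG8490 (signal 104), with ranks of 1404 (signal 48.8) and 845 (signal 73.2). Both peaks were thus nearer to the protein-coding start, and both were among the strongest regions of each replicate.

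tRNA:Leu-TAA-2-1 (3R, 24112964 to 24113047) had its summit 225 bp upstream and 350 bp from CG13605 (signal 91.6, rank 1671). The replicates ranked it 3276 (signal 31.0) and 1358 (signal 56.6). tRNA:Gly-TCC-1-1 had its summit 325 bp upstream, in an exon of CG31248 and 74 bp from the start of that gene (signal 71.1, rank 2604). It was outside the strongest 2892 of both replicates, at rank 2930 (signal 32.8) and 4453 (signal 29.2).

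tRNA:Gln-TTG-2-1 was the exception in position. It lies in an intron of CG12535, and the nearest protein-coding start to its summit, that of CG14269, was 8074 bp away. The summit lay 210 bp upstream of the tRNA start, with a pooled signal of 81.5 (rank 2075). It ranked 1535 (signal 53.0) in replicate 3 and 3381 (signal 30.5) in replicate 2, so replicate 2 alone would not have placed it among its strongest regions. This gene has no identical copy, and 97.2% of the 32-base words within 500 bp of its start occur once in the genome.

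**Figure D2:**
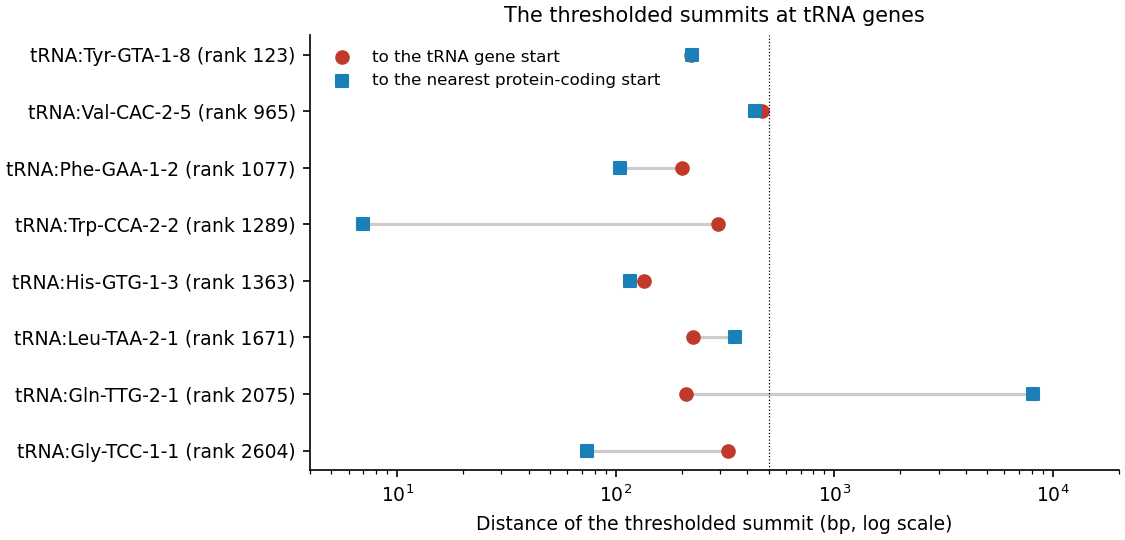
Distance (bp, log scale) from each of the 8 thresholded summits to the tRNA start (circles) and to the nearest protein-coding start (squares), with pooled ranks in brackets; the dotted line marks 500 bp. In 7 of the 8 the protein-coding start also lay within 500 bp, and at tRNA:Gln-TTG-2-1 it was 8074 bp away.

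Just outside the window, 7 tRNA genes had their nearest thresholded summit beyond 500 and up to 1000 bp from the start. Of these, 3 referred to peaks already described: tRNA:Tyr-GTA-1-7 at 689 bp, tRNA:His-GTG-1-2 at 895 bp and tRNA:Gly-GCC-1-9 at 533 bp. tRNA:Arg-TCT-1-1 (703 bp) and tRNA:Met-CAT-1-1 (913 bp) shared a peak 120 bp from CG9003 (signal 70.2, rank 2646). tRNA:Ile-AAT-1-9 had a summit 527 bp upstream (signal 119, rank 1047), 962 bp from CG8517. tRNA:Leu-CAA-2-2 had one 583 bp upstream (signal 74.8, rank 2402), and caps, the nearest protein-coding start, was 15166 bp from it. The last 2 were the ones with no protein-coding start within 500 bp of the summit.

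Below the threshold the tRNA summits were of middle rank. The 149 tRNA genes referred to 132 distinct pooled summits, since 72 genes shared a summit with another tRNA gene. Their median signal was 28.8 (quartiles 21.8 and 37.9) and their median rank 12964, against 33.1 and 9857 for summits at protein-coding starts and 26.7 for all regions. In rank, 8 were in the thresholded range (6.06%, against 17.6% at protein-coding starts and 9.64% of all regions). A further 40 lay after it up to rank 10000 (30.3%, against 23.7% of all regions). From there to rank 20000 lay 47 (35.6%, against 33.3%), and 37 were weaker still (28.0%, against 33.3%). Strong peaks were thus few at tRNA genes, and the bulk of the summits were of middle rank. Their median rank was somewhat ahead of that of all regions, 15000.5, in the pooled list. In the single lists it was near that value, at 15432 in replicate 2 and 15173.5 in replicate 3.

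After the genes at thresholded peaks, the 12 tRNA genes with the strongest pooled summits, some of them shared, were led by tRNA:Leu-CAG-1-1 (rank 3131, signal 64.2; rank 1741 in replicate 2 and 7941 in replicate 3), 3618 bp from the nearest protein-coding start. It was followed by tRNA:Thr-AGT-1-2 (rank 3522, signal 59.9), which ranked 3318 and 2992 in the replicates. tRNA:Gly-GCC-1-13 (rank 3571, signal 59.5) had its summit 54 bp from the start of tud, a germ plasm gene. Of these 3 summits, the last had a protein-coding start within 500 bp.

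The next were tRNA:Ala-AGC-2-8 (rank 3828, signal 57.0), which ranked 2383 in replicate 2 and 28421 in replicate 3 at the matched summit, and tRNA:Ala-TGC-2-1 (rank 3899, signal 56.4), which had no summit within 100 bp in replicate 2. tRNA:Glu-TTC-1-4 and the initiator gene tRNA:iMet-CAT-1-2 shared a summit (rank 3995, signal 55.5) that had no match within 100 bp in replicate 3. Replicate 3 did have a stronger summit within 500 bp of these genes, of rank 6516 (signal 23.3) at tRNA:Ala-AGC-2-8 and of rank 2558 (signal 40.2) at the shared pair. The replicates thus placed their summits apart there, while both marked the genes. tRNA:Met-CAT-1-2 (rank 4425) followed, then tRNA:iMet-CAT-1-4 and tRNA:iMet-CAT-1-5, which share a summit in an intron of the dipeptidyl peptidase gene ome (rank 4527, signal 51.5). tRNA:Ile-AAT-1-3 (rank 4716) had a start of ATP8A at 174 bp from the summit, and tRNA:Asp-GTC-1-4 (rank 4729) had Sema1a, an axon guidance gene, at 363 bp and no match within 100 bp in replicate 2. The neighbouring tRNA:Asp-GTC-1-5 shares that summit, 23 bp downstream of its own start.

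Over genes, 94 tRNA genes had a summit in both replicates, 21 in replicate 2 only, 82 in replicate 3 only and 93 in neither. Of the tRNA genes with a summit in replicate 2, 81.7% also had one in replicate 3, close to the 83.6% for protein-coding genes. In the other direction the share was 53.4% for tRNA genes and 76.9% for protein-coding genes, so the excess lay in replicate 3. Summit by summit, 72 of the 132 pooled tRNA summits (54.5%) had a summit of replicate 2 within 100 bp, 95 (72.0%) one of replicate 3, and 49 (37.1%) one of both. Over all 30000 pooled regions these shares were 61.4%, 60.5% and 34.0%. The lists do not hold depth or quality values, so the part of library quality in this difference was not tested.

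**Figure D3:**
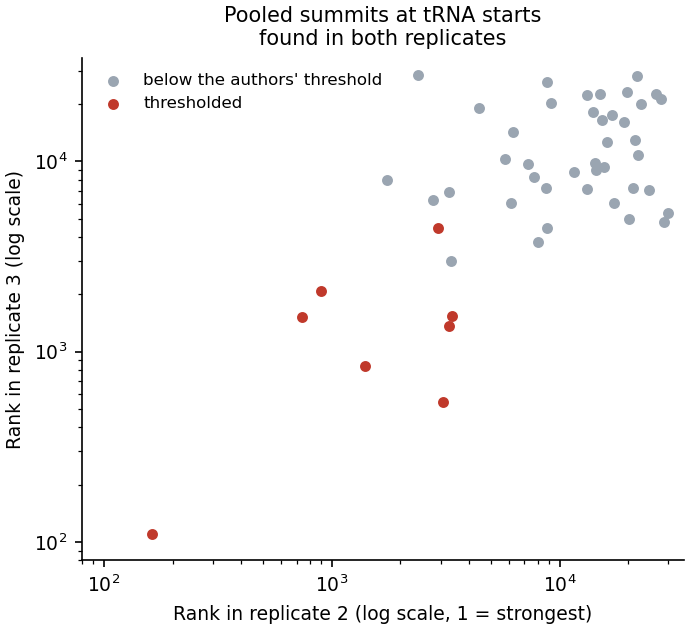
Rank in replicate 2 (x axis) against rank in replicate 3 (y axis), both log scales with 1 the strongest, for the 49 pooled summits at tRNA starts found within 100 bp in both replicates. The 8 thresholded summits (red) lie toward the lower left, led by tRNA:Tyr-GTA-1-8 at ranks 162 and 110, and the summits below the threshold scatter widely.

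Summits were placed differently around tRNA starts than around protein-coding starts. In the pooled list 46.3% of tRNA genes with a summit had the nearest one upstream, with a median position 23 bp downstream of the start, and 36.2% had it within 100 bp. For protein-coding genes 64.4% of the nearest summits were upstream, with a median of −45 bp, and in the thresholded list 84.4% were, with a median of −107 bp. The upstream share at tRNA genes was 51.3% in replicate 2 and 48.3% in replicate 3, with medians of −37 bp and 17.5 bp. In replicate 2 the median was thus near that of protein-coding genes in the same list, −48 bp, although a smaller share lay upstream than their 63.4%. Of the 132 pooled tRNA summits, 28 (21.2%) lay inside the tRNA gene itself. In the single replicates 16 of 102 and 25 of 158 did, while none of the 8 thresholded summits did.

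The density of summits over distance differed between replicates. Per 100 tRNA genes, the pooled list held 61.7 summits within 500 bp of the start, against 40.3 and 41.4 in the stretches of equal length from 1000 to 2000 bp upstream and downstream. In these densities a summit near several tRNA starts counted once for each. Within 500 bp, 132 distinct pooled summits thus counted as 179, 102 of replicate 2 as 131, and 158 of replicate 3 as 220. In replicate 3 the rise was larger, with 75.9 against 43.4 and 39.0. In replicate 2 it was small, with 45.2 against 39.3 and 40. The flanks were alike in the libraries, and the difference lay at the tRNA genes themselves. Protein-coding starts had 62.6 pooled summits per 100 genes against 32.4 and 29.9 in the flanks, with a like rise in replicate 2 (56.3 against 30.7 and 28.6) and replicate 3 (65.5 against 34.0 and 30.8).

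**Figure D4:**
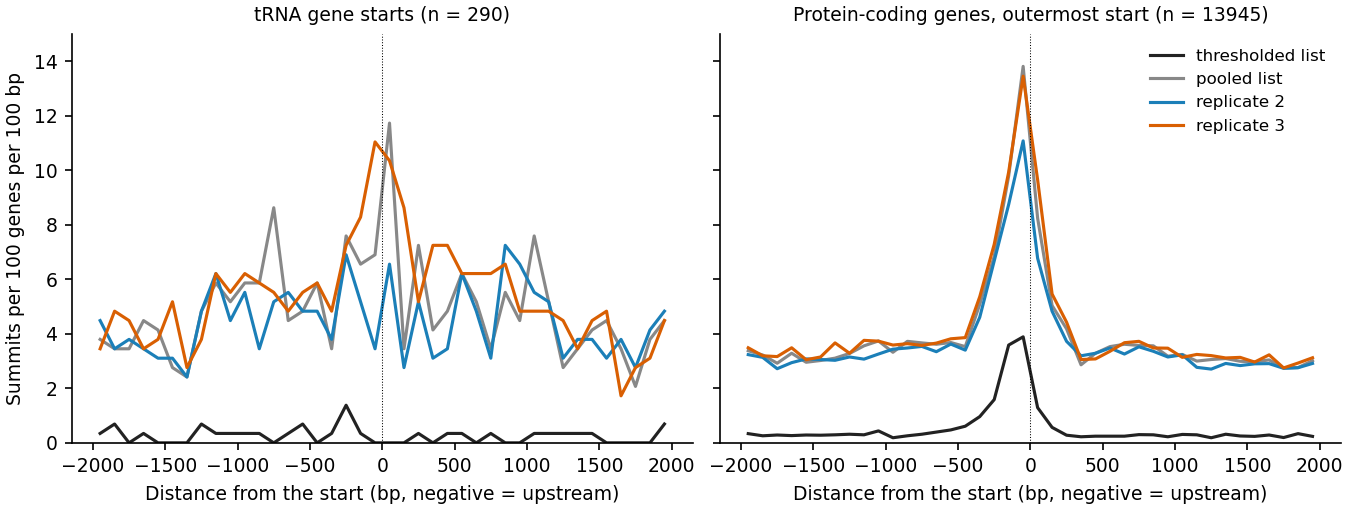
Summits per 100 genes in bins of 100 bp, by distance from the start (bp, negative is upstream), for 290 tRNA genes (left) and 13945 protein-coding genes (right) in the 4 lists. A summit near several tRNA starts counts once for each. Protein-coding genes show a narrow crest just upstream of the start in every list, whereas tRNA genes show a low crest around the start that is clearest in replicate 3.

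The tRNA genes fell into 144 genomic clusters when starts within 5000 bp of each other were joined. There were 76 genes on their own and 10 clusters of 5 or more genes, the largest with 11. A thresholded summit marked 8 clusters (5.56%) and a pooled one 81 (56.2%), with 75 in replicate 2 and 88 in replicate 3. All 8 thresholded summits were at lone genes (4) or in clusters of 2 to 4 genes (4), and 0 of the 72 genes in the larger clusters had one. In the pooled list these larger clusters had summits at 55.6% of their genes, as did the clusters of 2 to 4, against 39.5% of lone genes. The replicates parted most at the larger clusters, with 34.7% of the 72 genes in replicate 2 and 81.9% in replicate 3, while lone genes were at 36.8% and 47.4%.

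The cluster with most marked genes lies on 3R (17617761 to 17631750) in and beside CG43175 and holds 4 Ala-AGC, 3 Pro-TGG, 2 Thr-AGT and 2 valine genes. Of its 11 genes, 10 had a pooled summit, 7 one in replicate 2 and 10 one in replicate 3. Its strongest pooled summit, at tRNA:Thr-AGT-1-5 and tRNA:Thr-AGT-1-6, ranked 6831 (signal 40.2), and a summit of replicate 3 at the same place ranked 10635. The strongest summit of replicate 2 at these genes, of rank 6781, lay elsewhere and was not a match within 100 bp. It was 448 bp upstream of tRNA:Thr-AGT-1-5, against 277 bp for the pooled summit. The other summits of this cluster were weaker in the pooled list, down to rank 24803 at tRNA:Val-AAC-1-2. The cluster of 11 genes at EcR, the gene of the ecdysone receptor (2R, 6161535 to 6171759), has 8 of them in EcR introns and 3 outside. It had 7 genes marked in the pooled list, 6 in replicate 2 and 9 in replicate 3. It holds arginine, asparagine, isoleucine and lysine genes. The strongest summit of the cluster, at tRNA:Arg-ACG-1-3 outside EcR, ranked 6288 in the pooled list, 14425 in replicate 2 and 9036 in replicate 3.

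On 2R, the cluster of 7 glutamate and initiator methionine genes at 19725620 to 19728958 lies at least 11615 bp from any protein-coding start, and 6 genes had a pooled summit (3 in replicate 2, 7 in replicate 3). The cluster of 6 genes on 3R at 8139533 to 8141042, 5 of them Arg-ACG, is at least 13001 bp from such a start and had 5, 4 and 6 genes marked in the pooled, replicate 2 and replicate 3 lists. Both show summits at tRNA clusters in stretches with no protein-coding promoter nearby. In ATP8A, which encodes a phospholipid flippase (2R, 13430282 to 13432794), 4 of 7 isoleucine and leucine genes were marked in the pooled list, 1 in replicate 2 and 6 in replicate 3.

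At ATP8A and in 4 further clusters more genes were marked in replicate 3 than in replicate 2, with 0 or 1 in the latter. The 5 Gln-CTG genes in and beside CG4238 (2L, 2009155 to 2013250) had 1 gene marked in the pooled list and in replicate 2, and all 5 in replicate 3. The 6 Leu-CAG genes at Sarm, which encodes an axon degeneration factor (3L, 8060214 to 8068290), had 3, 1 and 6. The 4 Cys-GCA and 2 Lys-CTT genes in the chitinase gene Cht7 (3L, 3095737 to 3097590) had 4, 0 and 5. The 6 Glu-CTC genes at Ptp61F, a tyrosine phosphatase gene (3L, 1397695 to 1401852), had 0, 0 and 2. The cluster of 5 Arg-TCG and 2 Ser-CGA genes on X (14014814 to 14017284) had 0, 2 and 3 genes marked, at ranks of 24301 and weaker.

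The clusters at Ptp61F and on X were the 2 larger ones with no pooled summit. They also held the least unique sequence, with as little as 26.3% of 32-base words found once in the genome around tRNA:Glu-CTC-3-6 and 46.0% around tRNA:Arg-TCG-3-2. In the other 8 clusters the lowest window was at 78.2%. Reads from repeated sequence can map to several places, and its part in these counts was not tested. Over all tRNA genes the median unique share within 500 bp was 92.3%, and it was 91.4% for genes with a pooled summit and 92.8% for genes without one.

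**Figure D5:**
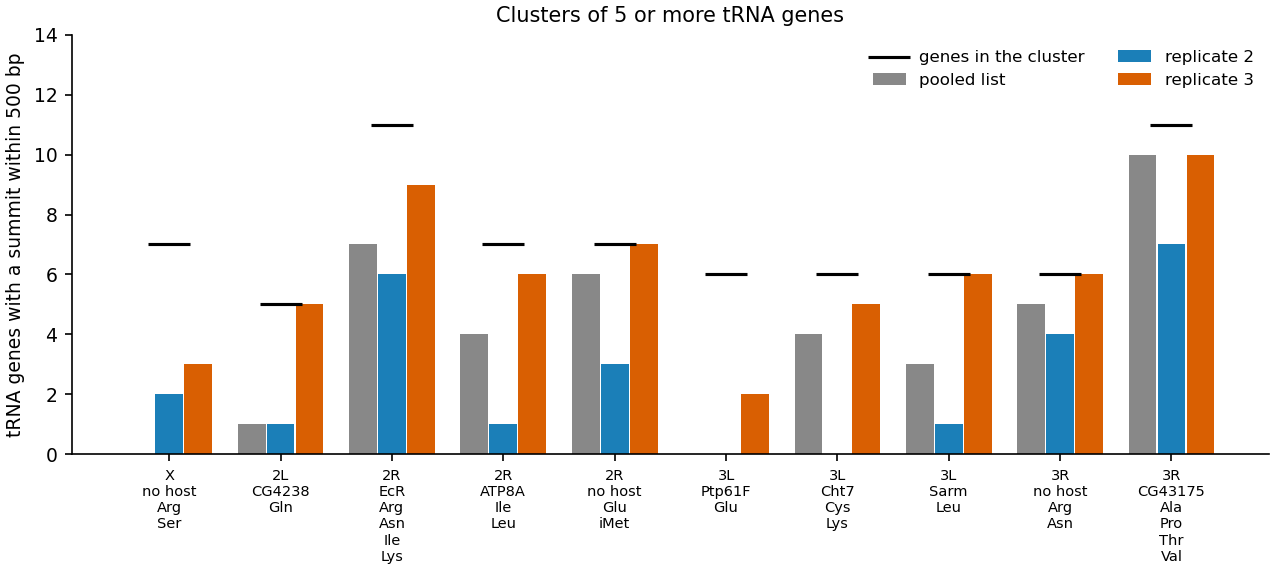
Number of tRNA genes with a summit within 500 bp in each of the 10 clusters of 5 or more genes, for the pooled list (grey), replicate 2 (blue) and replicate 3 (orange); black lines give the genes in the cluster, and labels give the arm, host gene and isotypes. Replicate 3 reaches at least as many genes as replicate 2 in all 10 clusters, and the Ptp61F and X clusters have no pooled summit.

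Introns of protein-coding genes held 130 of the tRNA genes, in 68 host genes. A thresholded summit lay at 4 of these (3.08%) and at 4 of the 160 others (2.50%). In the pooled list 61 intronic genes (46.9%) and 88 others (55.0%) had a summit, with 33.1% and 45.0% in replicate 2 and 58.5% and 62.5% in replicate 3. Restricted to genes over 1000 bp from a protein-coding start, the pooled shares were 48.9% of 94 and 49.6% of 117. They were 34.0% and 41.0% in replicate 2, and 58.5% and 59.0% in replicate 3. Intronic genes were thus close to the others in the pooled list and in replicate 3, and lower in replicate 2. tRNA genes read in the sense of the host alone had a pooled share of 48.0% (24 of 50), and those antisense to it 45.9% (34 of 74).

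Among hosts with 3 or more tRNA genes, EcR held 13, of which 7 were marked in the pooled list, 7 in replicate 2 and 9 in replicate 3. In hts, the adducin gene, all 3 were marked in the pooled and both replicate lists. In Ptp61F 1 of 9 was marked in the pooled list, 0 in replicate 2 and 5 in replicate 3. In mrj, which encodes a J-domain chaperone, 0 of 4 were marked in the pooled list and 2 in each replicate. Hosts therefore ranged from none to all of their tRNA genes in the pooled list.

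By chromosome arm, 4 of 24 tRNA genes on X (16.7%) had a pooled summit, against 17 of 41 on 2L (41.5%), 57 of 98 on 2R (58.2%), 23 of 48 on 3L (47.9%) and 48 of 79 on 3R (60.8%). Chromosome 4 held none of the genes. Genome windows on these arms stood between 17.7% on X and 20.5% on 2L in the pooled list, so in that list tRNA genes on X were the ones at the level of their arm. X was the lowest arm in replicate 2 (20.8%) and in replicate 3 (29.2%) as well, but there above the windows of X (17.6% and 17.9%). X also carried 2 of the 8 thresholded summits, and 7 of its 24 genes belong to the Arg-TCG and Ser-CGA cluster with little unique sequence.

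Isotypes with at least 10 genes ranged in the pooled list from 33.3% for glutamine (4 of 12) and 36.8% for lysine and glutamate (7 of 19 each) to 70.6% for alanine and proline (12 of 17 each). Alanine genes had a summit at 8 of 17 in replicate 2 and 16 of 17 in replicate 3, and lysine genes at 4 and 7 of 19. Lysine as a whole was thus low in both libraries, and alanine differed between them. Lys-CTT genes were at 3 and 7 of 13, and Lys-TTT genes at 1 and 0 of 6. Of the Lys-TTT genes, 4 form one cluster with 29.9% to 54.6% of 32-base words within 500 bp found once in the genome. The part of this repeated sequence was not tested. Within isotypes, anticodon families parted. Pro-AGG had 6 of 7 genes marked in the pooled list and in each replicate, and Pro-CGG had 1 of 5, 2 and 2. Arg-ACG had 7 of 10 in the pooled list, 7 in replicate 2 and 8 in replicate 3, whereas Arg-TCG had 1, 1 and 2 of 10. Of the Arg-TCG genes, 5 lie in the X cluster with little unique sequence. Among these, the 4 with identical sequence had 46.0% to 64.3% unique words within 500 bp. The part of repeated sequence in this contrast was not tested either. The only anticodon family with no summit in any list was Val-TAC, with 2 genes. Genes of one family often lie in one cluster and share summits, so these counts are not independent. The selenocysteine gene tRNA:SeC-TCA-1-1 had a summit in every full list, at ranks of 10279 in the pooled list, 15400 in replicate 2 and 16551 in replicate 3.

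The 290 genes had 95 distinct sequences, and 238 had at least 1 identical copy. A pooled summit lay at 44.2% of the 52 genes without a copy, at 51.7% of the 58 in sets of 2 to 4 and at 53.3% of the 180 in larger sets. These shares were 28.8%, 39.7% and 42.8% in replicate 2. In replicate 3 they were 26 of 52 genes, 58.6% and 64.4%. Genes with more copies thus had a higher share in each full list. All 8 thresholded summits were among the 211 genes with at least 90% unique sequence within 500 bp (3.79%), and none among the 79 others. In the full lists these shares lay closer, at 53.1% and 46.8% in the pooled list. They were 40.3% and 38.0% in replicate 2, and 59.7% and 63.3% in replicate 3. With only 8 thresholded summits, the part of unique sequence was not tested.

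The internal promoter letters were checked in the same way. On the gene strand, the B box core GTTCNANNC was present in 271 of 290 tRNA genes (93.4%). It was present in 7 of 290 windows of equal length 1000 bp upstream (2.41%). An A box core, TGGCNNAG, was present in 68 of 290 genes (23.4%) and in 5 of the upstream windows. Other forms of the A box were not searched, so a gene without these letters was not shown to lack one. None of the genes printed above holds them. In the 101 bp around summits, both strands searched, the B box core was found at 29 of the 132 pooled tRNA summits (22.0%). At all 2892 thresholded summits it was found in 3.46%, at other pooled regions in 2.94%, and in 2.91% of genome windows of that length. The letters were thus about as frequent at thresholded CG1792 summits in general as in the genome, and 28 of the tRNA summits lay inside a tRNA gene, where most genes hold them.

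Promoter elements of protein-coding genes were counted in the same 101 bp windows, both strands. The full Dref element TATCGATA, which contains CGATA, was in 2.70% of thresholded windows, 0.871% of other pooled regions and 0.278% of genome windows. It was in 0 of the 132 tRNA summits, too few windows to tell this from the share of other pooled regions. CGATA alone was in 13.6% of the tRNA summits (18 of 132), 18.8% of thresholded windows, 13.1% of other pooled regions and 11.4% of genome windows. GAGAG, bound by GAGA factor, was in 15.2% of the tRNA summits, 348 of 2892 thresholded windows, 12.7% of other pooled regions and 11.5% of genome windows. For CGATA and GAGAG, tRNA summits therefore stood near the pooled regions below the threshold.

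Other genes transcribed by RNA polymerase III had no thresholded summit. The 3 U6 snRNA genes lie together on 3R, and 2 of them, snRNA:U6:96Ab and snRNA:U6:96Ac, shared a pooled summit of rank 3519 (signal 60.0). The 7SK gene snRNA:7SKa, whose RNA holds the elongation factor P-TEFb inactive, had one at rank 3282 (signal 62.5), 42 bp downstream of its start, and snRNA:7SKb one at rank 19446. The RNA genes of RNase MRP (rank 6592) and RNase P (rank 16883), both of which process RNA, had summits too. U6 and the RNase RNAs use promoters upstream of the gene. The summits at the RNase MRP and RNase P genes lay downstream of the start, by 347 and 257 bp. As 48.0% of all genes had a pooled summit, these few genes are no measure of the part of promoter type, which was not tested. The 2 genes of the signal recognition particle RNA and the U6atac gene had none in any list. Both signal recognition particle RNA genes lie within the span of a Lys-TTT cluster (3R, 6819894 to 6823035). Around its tRNA starts, 29.9% to 54.6% of 32-base words occur once in the genome. Of 100 annotated 5S rRNA genes and pseudogenes, which have an internal promoter and lie in a repeated array, 0 had a summit in any list.

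The genes that encode the tRNA pathway stood apart from the tRNA genes. Of 56 protein-coding genes for RNA polymerase III, some of its factors, and tRNA processing and modification, 16 (28.6%) had a thresholded summit at a start. The share was 14.2% of all protein-coding genes. The list was drawn up by gene symbol and held no gene for TFIIIC, which was therefore not assessed. A pooled summit lay at 46 (82.1%), against 53.2%, with 39 (69.6%) in replicate 2 and 49 (87.5%) in replicate 3, against 49.6% and 54.0%. CG1792 peaks were thus found at starts of the genes in this list more often, at 28.6% against 2.76%, than at the tRNA genes themselves. The counts are not fully alike. A protein-coding gene counted at any of its annotated transcript starts, and the list includes subunits shared with other polymerases and a gene that entered by its symbol.

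Among the initiation factors and the repressor Maf1, 2 of 5 had a thresholded peak. They were Bdp1 (signal 390, rank 91, summit 85 bp upstream) and Brf (signal 269, rank 199, 121 bp upstream), both subunits of TFIIIB and both among the strongest regions of each replicate. Trf had no pooled summit, while Tbp (rank 10229) and Maf1 (rank 17057) had weak ones. Of 17 polymerase subunits 4 had a thresholded peak, among them the shared subunits Polr2H (signal 209, rank 338), Polr2F (signal 185) and Polr1D (signal 86.2). Shared subunits also serve other RNA polymerases. The catalytic subunit gene Polr3A had no pooled summit, and that of Polr3B ranked 5638.

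Of 17 processing and export genes 4 had a thresholded peak. They were Rpp20 (signal 120) and Pop4 (signal 83.4), named for RNase P proteins, RNaseZ (signal 73.9), which trims the 3′ end of tRNAs, and Pop2 (signal 123). Fly Pop2 encodes a deadenylase of the CCR4-NOT complex rather than an RNase P protein, and it entered by its symbol. Of 17 modification genes 6 had one. Among them, Trmt6 (signal 351, rank 114) and Trmt61 (signal 101.5) encode the paired subunits of a tRNA adenosine methyltransferase. Elp5 (signal 205), Elp6 (signal 181) and Elp4 (signal 70.2) encode subunits of Elongator, which modifies wobble uridines. Elp2 and Elp3 had pooled summits below the threshold, at ranks 6920 and 9106.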

How the data were processed

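ChIP-seq peak lists of 2 libraries were used. Per the library listing deposited by the authors, each replicate and their pool had regions called with a control alignment on dm6, and a thresholded list was derived from these. For the aligner, the peak caller and their versions, nothing is given in the sources used here. Deposited signal values are the caller's own; their scale is unstated and is not shared by the lists. The deposited offset (another unit, in bp) gave the summit. The control alignment and the dm3 lists were not used here. Labels call the libraries biological replicates.

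tRNA genes came from the Ensembl release 115 annotation and sequences from RefSeq's dm6 genome. A gene counted when a summit lay within 500 bp of its start, or of any annotated transcript start for protein-coding genes (the density per 100 genes used their outermost start). One summit could mark several genes. Replicate summits were matched within 100 bp. Unique sequence is the share of 32-base words found once on the 6 arms. No test was run, since there is 1 group. Wilson 95% intervals cover counting error only and take genes as independent, although neighbouring tRNA genes can share a summit. The members, the pathway list and all rules were chosen with earlier results of these data known. Named tRNA genes were those with a thresholded summit, the 12 with the next strongest pooled summits, those with a thresholded summit at 500 to 1000 bp, and every cluster of 5 or more genes; of the pathway list, those with a thresholded summit were named, except some not reported here, and a few others were added after their values were seen. The alternatives were windows of 250 and 1000 bp, other assignments, shorter lists, other cluster distances and each replicate alone. The window query was tested on simulated data. Python 3.11.15, numpy 2.4.6, scipy 1.17.1 and matplotlib 3.10.9 were used.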

Additional observations from a re-analysis of the deposited data

How the results depend on the processing

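The count of 8 tRNA genes with a thresholded summit moved with most choices: it was 5 within 250 bp, 15 within 1000 bp, 1 of the 211 genes with no protein-coding start within 1000 bp, 3 when each summit went to its nearest gene start of any class, and 5 in the stronger part of the list, cut at its median signal. A thresholded list cannot be made from 1 replicate, so the 2892 strongest regions of each replicate stood in for it. They gave 7 genes in replicate 2 (without replicate 3) and 12 in replicate 3 (without replicate 2). The count of 149 genes with a pooled summit was 96 in the stronger part of the pooled list, and 100 to 208 under the other windows and assignments. In the full single lists it was 115 in replicate 2 (without replicate 3) and 176 in replicate 3 (without replicate 2). The narrower or shorter settings give fewer summits by construction, and the cause of the difference between replicates was not tested. Counts of marked clusters stayed at 8 in the thresholded list and between 77 and 92 in the pooled list under the other joining distances. The median signal per gene was 29.9 with the strongest summit and 29.3 with the closest. No paired analysis was possible because there is only 1 group. The lists give no depth, so what was not detected cannot be bounded.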
